A study of Homo sapiens with 28 samples.

Results

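The p53 pathway and target genes are 31 named genes, and each was found as 1 of the 61815 human gene rows of the counts table by its symbol. The table held RNA-seq counts of 28 libraries from LNCaP, an androgen-responsive line from a lymph node metastasis of prostate cancer, in 8 groups from 2 experiments. Before treatment the cells were kept in charcoal-stripped serum, which removes steroid hormones, for 72 h. In the 24 h experiment, 3 libraries each came from vehicle, Senexin B at 1 µM, R1881 at 0.1 nM, and R1881 with Senexin B. In the 72 h experiment, 4 libraries each came from vehicle, SNX631 at 500 nM, R1881 at 1 nM, and R1881 with SNX631. R1881 is a synthetic androgen, and Senexin B and SNX631 inhibit CDK8 and CDK19, the paralogous kinases of the Mediator complex. All libraries came from 1 cell line labelled WT, so the groups differ in treatment and not in genotype. The doses are those of the labels, and the text of the study names a higher Senexin B dose for its LNCaP RNA-seq. Since time, androgen dose, inhibitor and experiment all changed together, their shares in any difference between the 2 experiments cannot be told apart, and values from the experiments are given side by side.

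p53 is a transcription factor that is stabilised by DNA damage and other stress, binds a response element made of a pair of half-sites, and raises genes of growth arrest, cell death, DNA repair and metabolism. Among its targets are its own inhibitors, such as MDM2, an E3 ligase that marks p53 for degradation, so that the response limits itself. Many of these targets also have other regulators, including the androgen receptor, a steroid-bound transcription factor, and the kinases of the integrated stress response.

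Total counts lay between 9846595 and 15248512 in 27 libraries and reached 33809419 in replicate 3 of the 24 h vehicle group. As a check of the labels, KLK3 and FKBP5, both direct androgen receptor targets, rose with R1881 by 6.15 ± 0.14 and 3.65 ± 0.05 on the log2 scale at 24 h and by 6.57 ± 0.18 and 3.86 ± 0.03 at 72 h (SE, FDR at or under 4.71e-33 at 24 h). The luminal prostate markers KRT8, KRT18, HOXB13 and FOLH1 were present in every group. Of the 6 markers of other cell types, PTPRC, CD3E, PECAM1, KRT5 and KRT14 did not exceed 0.441 CPM (counts scaled to library size) in any library, and COL1A1, a fibroblast gene, had group means between 8.12 and 30.0 CPM, with the highest mean in the vehicle group of each experiment. The part of COL1A1-expressing cells in the results below was not tested.

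Values below are CPM after TMM scaling, which sets each library against the others of its experiment, and changes are log2 fold changes ± SE from edgeR's quasi-likelihood test with Benjamini-Hochberg adjusted p-values (FDR) over all genes tested. A gene was called changed when FDR was under 0.01 and the fold change over 1.5, the limits that the study used. All 31 members passed the filter on low counts in both experiments. The smallest counts were those of FAS, with 16 to 71 counts in a library. The study's methods speak of biological replicates, but the labels do not say how the libraries of a group were made separate, and the tests measure the spread between these libraries. In bulk RNA, fewer cells of a kind and less RNA per cell cannot be told apart.

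The first question was how androgen alone moved the members. With R1881, 5 of them were called higher and 2 lower in both experiments, a share not counted over all genes. The antiproliferative gene BTG1, the polo-like kinase gene PLK2, the stress sensor gene GADD45B, the phosphatase gene PPM1D and the death receptor gene TNFRSF10B rose, and TP53INP1, whose product is a stress-induced partner of p53, and GDF15, which encodes a secreted stress cytokine, fell. At 24 h, 6 members were called higher and 3 were called lower, while over all 15948 genes tested the shares were 9.81% and 9.19%. At 72 h, 5 went up past both limits and 8 down, against 9.70% and 10.1% of 16074 genes. Scaled by library totals only, which shifted the median of all genes from -0.01 to -0.12 there, 5 members and 1299 genes were called higher and 11 members and 2121 genes lower. At any fold, 20 members passed the FDR limit at 24 h, where 48.4% of all genes did, and 23 at 72 h, where 52.2% did. The median log2 fold change of the members was 0.08 at 24 h and -0.11 at 72 h, beside -0.02 and -0.01 over all genes.

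**Figure D1:**
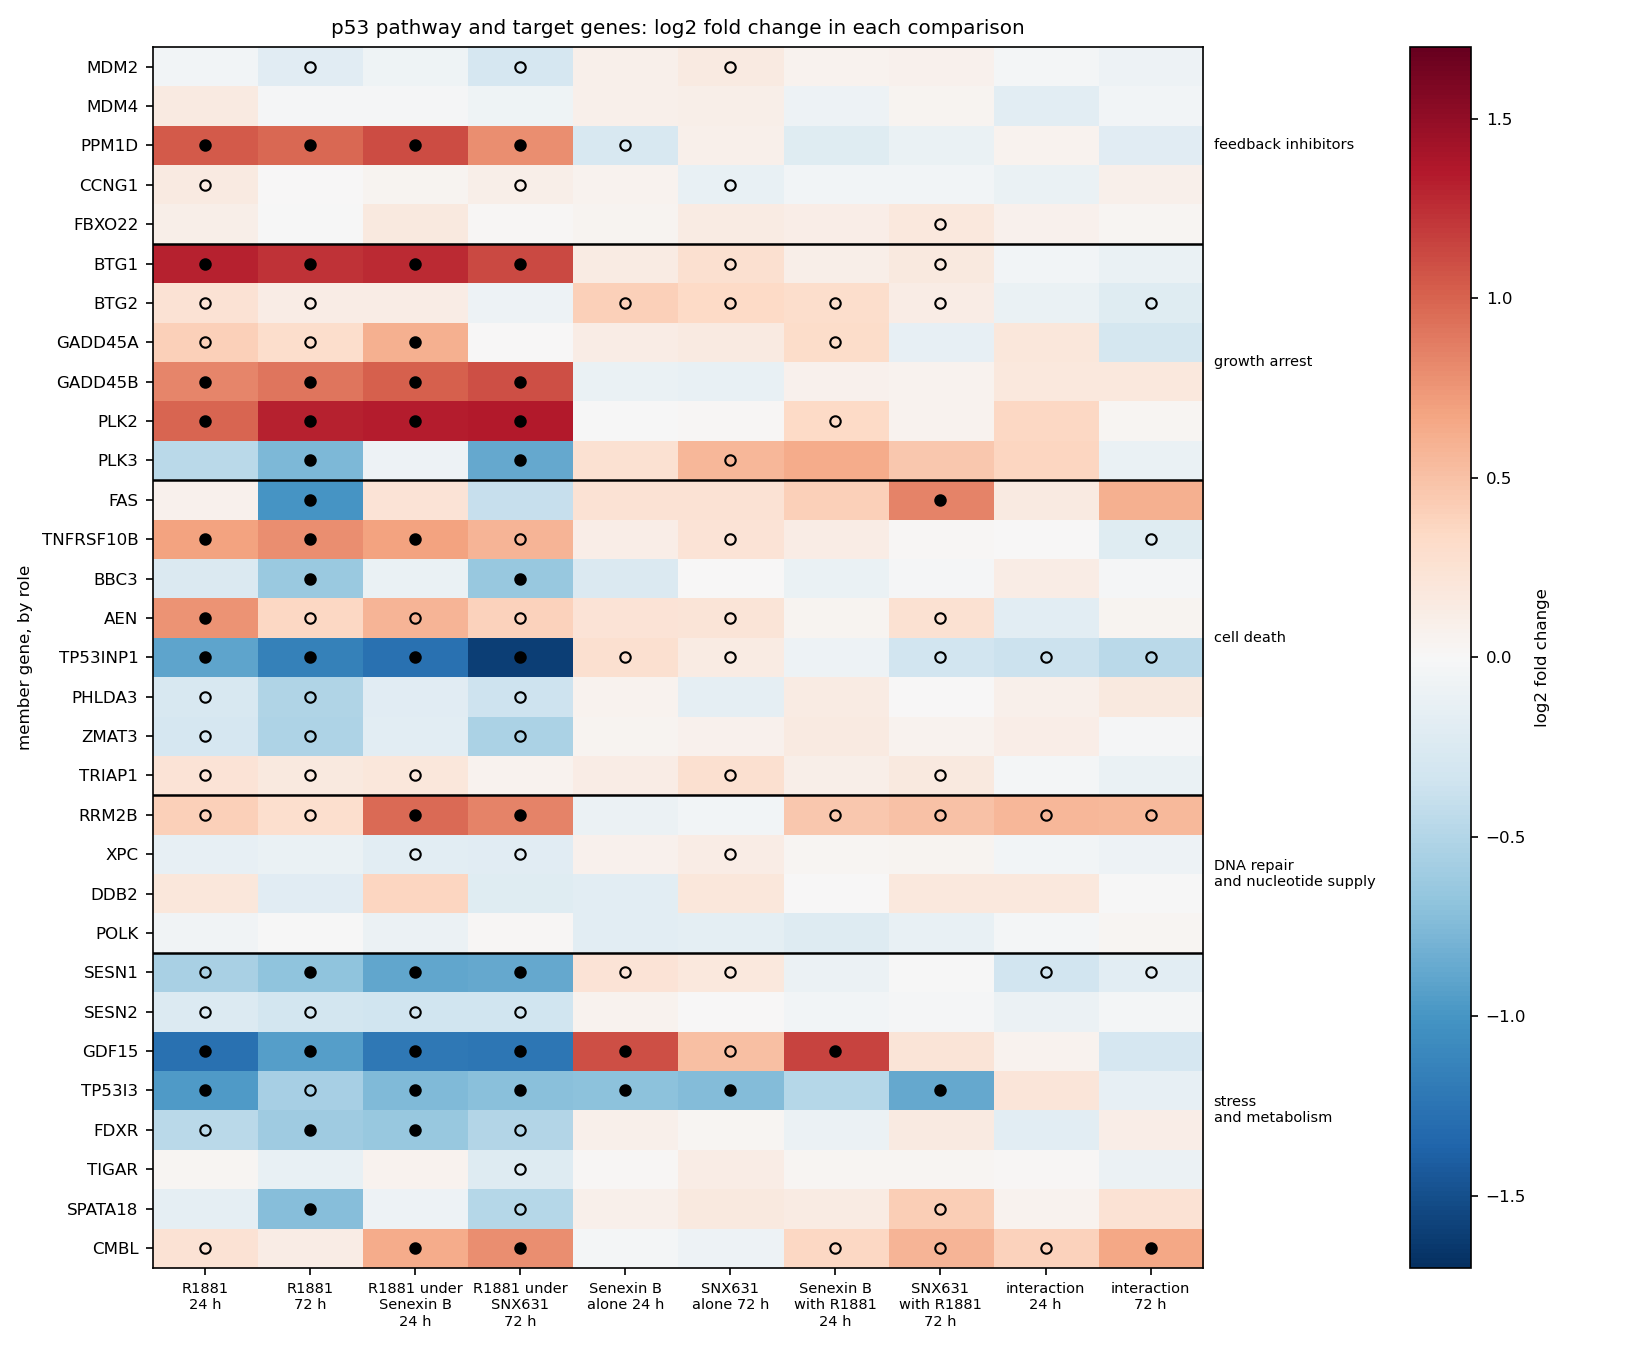
Log2 fold change of the 31 members (rows, in 5 roles) in the 10 comparisons (columns, 24 h and 72 h side by side), with red for higher and blue for lower. Filled circles mark called genes and open circles genes past the FDR limit only. The androgen columns hold most filled circles, with growth arrest genes mostly red and the genes of stress and metabolism mostly blue. The roles were assigned for this report, with TP53INP1 placed among the cell death genes.

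Androgen left the main inhibitors of p53 close to their vehicle level, apart from PPM1D. MDM2 (chromosome 12, 68808176 to 68850686) had mean levels of 97.4 ± 3.08 CPM in vehicle and 94.7 CPM with R1881 at 24 h, where it did not pass the test (-0.05 ± 0.04, FDR = 0.355). In the 72 h experiment it fell by 0.20 ± 0.04 on the log2 scale (FDR = 1.3e-05), from a mean of 118.5 to 103.6 CPM, which is under the fold limit. MDM4, a relative of MDM2 that binds and masks p53, had changes of 0.15 ± 0.09 and -0.02 ± 0.07 with FDR of 0.17 and 0.80. CCNG1, the gene of cyclin G1, rose by 0.16 ± 0.04 at 24 h (FDR = 0.00045) and had 0.01 ± 0.03 at 72 h. FBXO22, the substrate subunit of a ubiquitin ligase, had 0.10 ± 0.05 and -0.01 ± 0.05, and passed the FDR limit in neither experiment. It shares 16.2% of its exonic bases with NRG4 on the opposite strand.

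PPM1D (chromosome 17, 60600183 to 60666280) encodes the phosphatase WIP1, which removes activating phosphates from p53 and from kinases of the DNA damage response. Its levels were 18.4, 17.6 and 17.4 CPM in the vehicle libraries and 36.5, 35.0 and 37.4 CPM with R1881 at 24 h. At 72 h they were 21.6, 23.4, 19.5 and 21.7 CPM in vehicle and 45.0, 41.4, 41.3 and 43.2 CPM with R1881. Every R1881 library lay above every vehicle library of its experiment, and the change was 1.04 ± 0.07 (FDR = 4.0e-15) and 0.98 ± 0.06 (FDR = 1.9e-17), or 2.05-fold and 1.97-fold.

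Of the 6 growth arrest genes, 3 were called higher in both experiments. Over all genes, 9.81% were called higher at 24 h and 9.70% at 72 h, and the share in both was not counted. BTG1 (chromosome 12, 92140278 to 92145897) stood at 60.5, 58.4 and 59.0 CPM in vehicle and 149, 147 and 142 CPM with R1881 at 24 h. After 72 h it stood at 49.3, 46.3, 48.6 and 45.7 CPM in vehicle and 121, 118, 108 and 98.9 CPM with R1881. The groups were far apart in both experiments, with changes of 1.30 ± 0.04 (FDR = 1.2e-23) and 1.23 ± 0.05 (FDR = 4.0e-23). BTG1 overlaps the noncoding gene LINC01619 on its own strand over 10.4% of its exonic bases, and such reads could be split between them. PLK2 (chromosome 5, 58453982 to 58460260), a kinase that acts at the G1 checkpoint and the centrosome, had 32.6, 32.4 and 35.8 CPM in vehicle and 68.2, 72.1 and 63.5 CPM with R1881 at 24 h. Its 72 h vehicle libraries had 22.5, 25.6, 24.8 and 22.9 CPM and those with R1881 60.6, 59.4, 60.3 and 56.9 CPM. The androgen effect on PLK2 was 0.99 ± 0.06 (FDR = 7.6e-16) and 1.31 ± 0.06 (FDR = 7.6e-22), and no R1881 library reached down to a vehicle library.

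GADD45B (chromosome 19, 2476122 to 2478259), which encodes a small protein that activates stress kinases, was low, with 24 to 111 counts in a library. Its levels at 24 h were 2.25, 3.60 and 3.16 CPM in vehicle and 5.69, 4.32 and 6.48 CPM with R1881. At 72 h they were 3.31, 3.28, 4.12 and 2.19 CPM and 5.75, 5.31, 6.33 and 6.76 CPM. The groups did not overlap, but the libraries of a group differed more than for BTG1, and the changes were 0.83 ± 0.18 (FDR = 0.00015) and 0.91 ± 0.15 (FDR = 1.6e-06).

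The remaining growth arrest genes did not share 1 pattern. GADD45A rose by 0.40 ± 0.08 and 0.30 ± 0.09 with R1881 (FDR = 8.5e-05 and 0.0049), and BTG2, a paralog of BTG1, rose by 0.24 ± 0.05 and 0.13 ± 0.04 (FDR = 6.7e-05 and 0.0024), all under the fold limit. PLK3, a stress-responsive relative of PLK2, fell by 0.76 ± 0.17 at 72 h (FDR = 0.00019) and had -0.46 ± 0.22 at 24 h (FDR = 0.071).

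**Figure D2:**
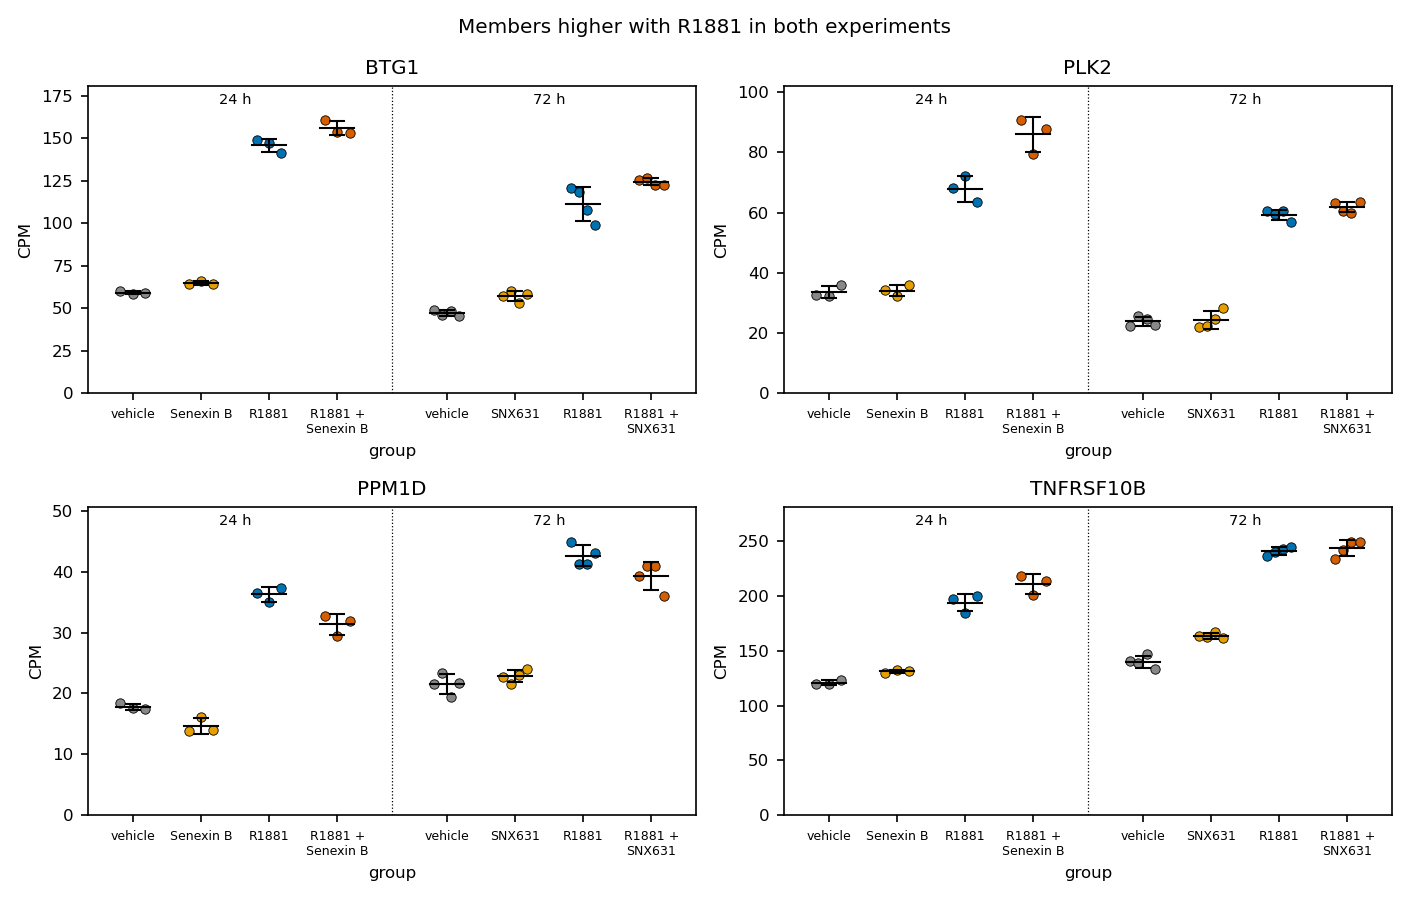
CPM of BTG1, PLK2, PPM1D and TNFRSF10B in every library (points), with group mean and SD (bars), for the 4 groups at 24 h and the 4 groups at 72 h (horizontal axis). In each panel the libraries with R1881, with or without inhibitor, lie above all libraries without it in the same experiment, as for BTG1 with 142 to 149 against 58.4 to 60.5 CPM at 24 h.

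The death genes moved in both directions. TNFRSF10B (chromosome 8, 23020133 to 23069179), the gene of the TRAIL receptor DR5, had 119, 120 and 124 CPM in vehicle and 198, 185 and 200 CPM with R1881 at 24 h. At 72 h it had 141, 139, 147 and 133 CPM in vehicle and 237, 241, 244 and 245 CPM with R1881. It rose by 0.68 ± 0.04 (FDR = 1.8e-16) and 0.79 ± 0.03 (FDR = 7.5e-24) with no overlap. FAS (chromosome 10, 88990582 to 89015785), another death receptor gene, had 0.08 ± 0.22 at 24 h (FDR = 0.78). At 72 h FAS stood at 2.87, 3.51, 2.75 and 3.82 CPM in vehicle and 1.67, 1.99, 1.43 and 1.40 CPM with R1881, and it fell by 1.00 ± 0.20 (FDR = 2.3e-05). FAS shares 8.9% of its exonic bases with ACTA2 on the opposite strand, and whether the counting used strand is not given in the sources used here.

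BBC3, which encodes the BH3-only protein PUMA, fell by 0.62 ± 0.10 at 72 h (FDR = 1.9e-06) and had -0.25 ± 0.12 at 24 h (FDR = 0.073). AEN, a nuclease gene that promotes apoptosis, rose by 0.76 ± 0.07 at 24 h (FDR = 6.2e-11) and by 0.35 ± 0.05 at 72 h (FDR = 8.9e-07), the latter under the fold limit. ZMAT3, an RNA-binding zinc finger gene, fell by 0.29 ± 0.07 and 0.52 ± 0.05, and PHLDA3, whose product restrains AKT, fell by 0.28 ± 0.09 and 0.51 ± 0.07. Those 4 changes passed the FDR limit and not the fold limit. PHLDA3 shares 19.1% of its exonic bases with AC096677.2 on the same strand. TRIAP1, a small gene that inhibits apoptosis, rose by 0.23 ± 0.05 and 0.17 ± 0.05 (FDR = 0.00047 and 0.0041).

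TP53INP1 (chromosome 8, 94925972 to 94949411) fell in both experiments. Its levels were 386, 380 and 382 CPM in vehicle and 209, 200 and 208 CPM with R1881 at 24 h. At 72 h they were 430, 420, 427 and 443 CPM and 198, 194, 192 and 194 CPM. TP53INP1 fell by 0.90 ± 0.03 (FDR = 2.1e-21) and by 1.14 ± 0.03 (FDR = 6.1e-30), which is 1.86-fold and 2.21-fold lower.

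Of the 4 repair genes, 1 passed the FDR limit with R1881 alone, where 48.4% of all genes did at 24 h and 52.2% at 72 h. RRM2B, which encodes the p53-inducible subunit of ribonucleotide reductase that supplies deoxynucleotides, rose by 0.41 ± 0.04 and 0.29 ± 0.03 (FDR = 7.5e-11 and 5.4e-10), under the fold limit. The DNA damage sensor genes XPC and DDB2, which recognise damage in nucleotide excision repair, and POLK, a translesion polymerase gene, had values between -0.20 and 0.19 and none passed the FDR limit. For XPC, 30.4% of the exonic bases lie opposite to exons of other genes, LSM3 among them.

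Of the 8 genes of stress and metabolism, 2 were called lower at 24 h and 4 at 72 h, and 0 were called higher, where 9.19% and 10.1% of all genes were lower and 9.81% and 9.70% higher. GDF15 (chromosome 19, 18374731 to 18389176) had 15.7, 16.1 and 14.5 CPM in vehicle and 6.34, 7.06 and 5.53 CPM with R1881 at 24 h. In the 72 h experiment it had 23.9, 25.4, 24.7 and 24.9 CPM in vehicle and 13.7, 13.4, 11.8 and 12.9 CPM with R1881. It fell by 1.27 ± 0.12 (FDR = 2.0e-11) and by 0.94 ± 0.09 (FDR = 5.9e-12), with the R1881 libraries well below vehicle. SESN1 (chromosome 6, 108986437 to 109094819) encodes a sestrin that restrains the growth kinase complex mTORC1. It had 185, 176 and 175 CPM in vehicle and 117, 124 and 124 CPM with R1881 at 24 h, and it fell by 0.55 ± 0.04 (FDR = 1.9e-14), just under the fold limit. After 72 h it had 171, 168, 164 and 164 CPM and 107, 108, 103 and 96.3 CPM, a fall by 0.69 ± 0.03 (FDR = 1.6e-20). Its paralog SESN2 fell by 0.23 ± 0.06 and 0.31 ± 0.06 (FDR = 0.0012 and 2.7e-05).

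TP53I3 (chromosome 2, 24077433 to 24085861), the gene of a quinone oxidoreductase also called PIG3, had 6.01, 6.84 and 7.25 CPM in vehicle and 3.86, 2.91 and 3.804 CPM with R1881 at 24 h. At 72 h it had 8.09, 7.33, 9.70 and 9.44 CPM and 5.65, 5.80, 5.88 and 5.88 CPM. The groups did not overlap, and TP53I3 fell by 0.96 ± 0.16 (FDR = 1.6e-06) and by 0.57 ± 0.11 (FDR = 2.9e-05), the latter under the fold limit. FDXR, which encodes the reductase that hands electrons to mitochondrial ferredoxin, fell by 0.46 ± 0.08 and 0.60 ± 0.08 (FDR = 5.9e-06 and 7.2e-08), and the 72 h value lay at the fold limit, so that it was not called without 72 h vehicle replicate 2 or 4, without 72 h R1881 replicate 3 or 4, or with no filter on low counts (-0.58 to -0.57). SPATA18, a mitochondrial quality control gene, fell by 0.73 ± 0.09 at 72 h (FDR = 5.4e-09) and had -0.15 ± 0.12 at 24 h. TIGAR, a fructose bisphosphatase gene, had 0.04 ± 0.09 and -0.13 ± 0.08 and passed the FDR limit at neither time, and 42.6% of its exonic bases overlap AC008012.1 on the same strand. CMBL, the gene of a cysteine hydrolase, rose by 0.24 ± 0.04 at 24 h (FDR = 1.6e-05) and had 0.12 ± 0.04 at 72 h (FDR = 0.012).

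The 2 experiments share no libraries, and 18 members passed the FDR limit for the androgen effect in both, all with the same sign. Over all genes 48.4% passed it at 24 h and 52.2% at 72 h, and the share that passed in both was not counted. Across the 31 members Pearson's r between the 24 h and the 72 h androgen effect was 0.91, as a description over genes that share the libraries of each experiment. Neither r nor the agreement in sign was computed over all genes, so neither is shown to be particular to the members. No member was called in opposite directions.

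The second question was whether the androgen effect on these genes held when CDK8 and CDK19 were inhibited. In the presence of Senexin B, 8 members were called higher with R1881 and 5 lower, where 9.97% and 8.90% of all genes were. In the presence of SNX631, 6 were called higher and 6 lower, where 10.1% and 12.0% were, and with scaling by library totals only the split was 6 and 9 (1311 and 2435 over all genes). At any fold 17 members passed the FDR limit under Senexin B (47.5% of all genes) and 23 under SNX631 (57.3%). In both experiments BTG1, PLK2, PPM1D, GADD45B, RRM2B and CMBL were called higher and TP53INP1, SESN1, GDF15 and TP53I3 were called lower. The share of all genes called the same way in both was not counted. In addition TNFRSF10B (0.69 ± 0.04, FDR = 1.6e-16) and GADD45A (0.60 ± 0.08, FDR = 1.8e-07) were called higher and FDXR (-0.65 ± 0.08, FDR = 4.2e-08) lower under Senexin B. GADD45A and FDXR were not called with R1881 alone at 24 h (0.40 and -0.46). Their 24 h interactions did not pass the FDR limit (FDR = 0.43 and 0.45). Under SNX631 PLK3 (-0.87 ± 0.14, FDR = 7.5e-07) and BBC3 (-0.64 ± 0.10, FDR = 3.7e-07) were called lower. The calls of GADD45A and FDXR lay near the fold limit and were lost without Senexin B replicate 2 (0.56 and -0.57), and that of GADD45A also without replicate 1 of R1881 with Senexin B (0.58). The other members past the FDR limit had sizes under the fold limit, namely AEN, TRIAP1, XPC and SESN2 under Senexin B (-0.34 to 0.58) and MDM2, CCNG1, TNFRSF10B, AEN, PHLDA3, ZMAT3, XPC, SESN2, FDXR, TIGAR and SPATA18 under SNX631 (-0.54 to 0.57). Of the members called with R1881 alone, AEN at 24 h and TNFRSF10B, FDXR and SPATA18 at 72 h thus fell short of the fold limit under inhibitor. FAS, which fell with R1881 alone at 72 h, overlapped between the groups under SNX631 and missed the FDR limit (-0.39 ± 0.15, FDR = 0.024).

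For BTG1, PLK2, PPM1D and GADD45B, called higher with R1881 alone in both experiments, R1881 was also called under both inhibitors. BTG1 had 64.5, 66.4 and 64.3 CPM with Senexin B and 161, 154 and 153 CPM with both treatments, and 57.5, 60.0, 53.3 and 58.4 CPM with SNX631 and 126, 127, 123 and 123 CPM with both. PLK2 had 34.2, 32.2 and 35.8 CPM with Senexin B and 90.6, 79.5 and 87.8 CPM with both, and 21.9, 22.4, 24.6 and 28.3 CPM with SNX631 and 63.1, 60.6, 60.0 and 63.4 CPM with both. The libraries with and without R1881 did not overlap for either gene, and the rises under inhibitor were 1.26 ± 0.04 and 1.12 ± 0.05 for BTG1 (FDR = 4.5e-23 and 6.5e-23) and 1.34 ± 0.06 and 1.35 ± 0.06 for PLK2 (FDR = 4.6e-19 and 7.3e-23). PPM1D rose by 1.10 ± 0.08 and 0.79 ± 0.06 and GADD45B by 1.01 ± 0.19 and 1.09 ± 0.15 (FDR = 2.3e-14, 4.7e-15, 3.0e-05 and 2.4e-08). The smaller rises did not all pass the FDR limit under inhibitor. BTG2 had 0.13 ± 0.05 and -0.08 ± 0.03, CCNG1 0.05 ± 0.04 at 24 h and GADD45A 0.00 ± 0.09 at 72 h, with groups that overlapped and FDR of 0.016 and more. GDF15 fell by 1.21 ± 0.09 and 1.23 ± 0.08 and TP53I3 by 0.76 ± 0.19 and 0.70 ± 0.14 (FDR = 6.7e-14, 2.9e-17, 0.00095 and 1.9e-05).

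The interaction, the difference between both androgen effects, tests whether they differ.

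By the interaction, 4 members differed in both experiments at any fold, and in the same direction. The share of all genes that did so in both was not counted. RRM2B and CMBL had a larger rise with R1881 when the inhibitor was present, and TP53INP1 and SESN1 had a larger fall. With the fold limit, no member was called for the interaction at 24 h by edgeR, where 4 passed the FDR limit and 6 had an unadjusted p under 0.05, nor by DESeq2 (0). At 72 h 1 member, CMBL, was called, with a higher androgen effect. Over all genes the 24 h shares were 0.245% for a higher and 0.332% for a lower androgen effect under inhibitor, and the 72 h shares 0.373% and 0.821%. The share that passed the FDR limit at any fold was 2.09% of all genes at 24 h and 7.09% at 72 h, where 6 members passed it. Without replicate 3 of the 24 h group with R1881 and Senexin B, RRM2B was called as well.

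RRM2B (chromosome 8, 102204502 to 102239118) had 114, 116 and 113 CPM in vehicle, 108, 101 and 108 CPM with Senexin B, 153, 148 and 151 CPM with R1881, and 206, 216 and 199 CPM with both. In the 72 h experiment it had 111, 114, 105 and 110 CPM in vehicle, 109, 105, 105 and 105 CPM with SNX631, 139, 136, 135 and 129 CPM with R1881, and 196, 191, 186 and 189 CPM with both. Without androgen the inhibitor groups lay at or slightly below vehicle, and with androgen every library with inhibitor lay above every library without it. The androgen effect went from 0.41 ± 0.04 to 0.97 ± 0.04 at 24 h, an interaction of 0.56 ± 0.05 (FDR = 1.2e-08). After 72 h it went from 0.29 ± 0.03 to 0.84 ± 0.03, an interaction of 0.55 ± 0.04 (FDR = 5.6e-12). The inhibitor effect was -0.11 ± 0.04 (FDR = 0.036) without and 0.45 ± 0.04 (FDR = 3.6e-11) with R1881 at 24 h, and -0.05 ± 0.03 (FDR = 0.22) and 0.50 ± 0.03 (FDR = 1.3e-16) at 72 h.

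CMBL (chromosome 5, 10275875 to 10308026) followed the same order. It had 71.0, 67.2 and 70.1 CPM in vehicle, 69.3, 68.1 and 66.2 CPM with Senexin B, 80.5, 78.9 and 87.3 CPM with R1881, and 106, 104 and 106 CPM with both. At 72 h it had 70.7, 72.4, 68.8 and 75.9 CPM in vehicle, 72.7, 66.8, 63.9 and 69.6 CPM with SNX631, 81.2, 74.0, 78.8 and 80.3 CPM with R1881, and 111, 119, 118 and 122 CPM with both. The 72 h vehicle and R1881 libraries overlapped, and the libraries with both treatments stood clear of all others. The interaction was 0.39 ± 0.06 (FDR = 8.5e-05) at 24 h and 0.66 ± 0.06 (FDR = 5.8e-11) at 72 h. SNX631 in the presence of R1881 moved CMBL by 0.58 ± 0.04 (FDR = 4.5e-15), a 1.50-fold rise at the fold limit itself, and Senexin B by 0.36 ± 0.04 (FDR = 1.2e-07).

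**Figure D3:**
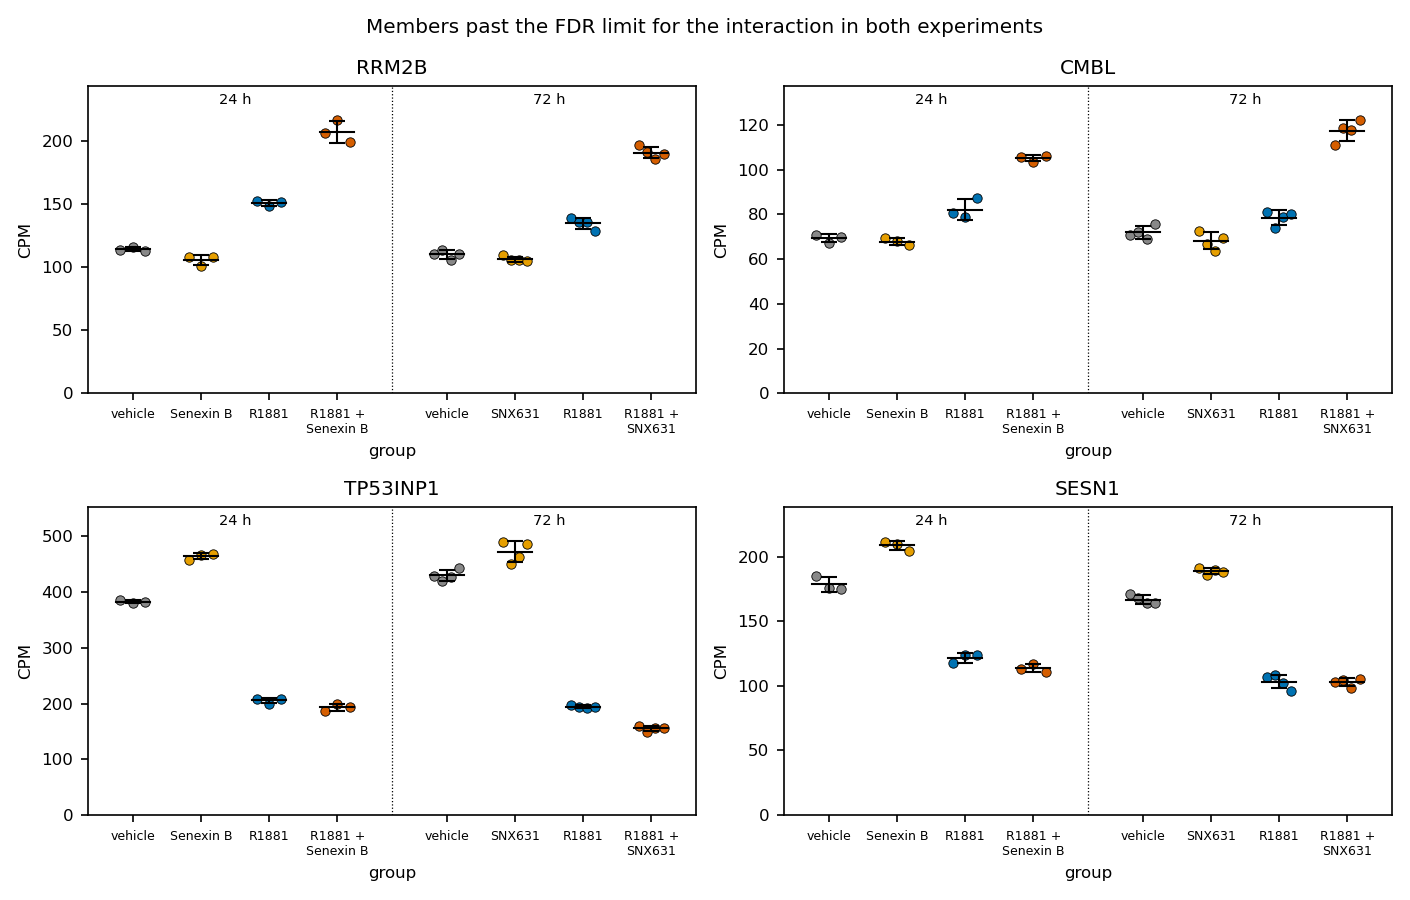
CPM of RRM2B, CMBL, TP53INP1 and SESN1 in every library (points), with group mean and SD (bars), for the 4 groups of each experiment (horizontal axis). For RRM2B the libraries with R1881 and inhibitor (199 to 216 CPM at 24 h, 186 to 196 CPM at 72 h) lie above all others, and for TP53INP1 the libraries with inhibitor alone lie highest.

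TP53INP1 showed the converse. It had 458, 467 and 467 CPM with Senexin B alone, above all vehicle libraries, and 186, 199 and 193 CPM with R1881 and Senexin B, where the R1881 libraries had 200 to 209 CPM. In the 72 h experiment it had 490, 451, 462 and 486 CPM with SNX631 alone and 160, 150, 156 and 157 CPM with both, all below the R1881 libraries at 192 to 198 CPM. The androgen effect was -0.90 ± 0.03 without and -1.27 ± 0.03 with Senexin B. For SNX631 the same pair of values was -1.14 ± 0.03 and -1.60 ± 0.03. The interaction was -0.37 ± 0.05 (FDR = 2.1e-06) and -0.46 ± 0.04 (FDR = 3.6e-11). In the absence of androgen the inhibitors raised TP53INP1 by 0.28 ± 0.03 (FDR = 1.3e-08) and 0.14 ± 0.03 (FDR = 4.9e-05). In its presence the value was -0.09 ± 0.03 for Senexin B (FDR = 0.043), and SNX631 lowered it by 0.32 ± 0.03 (FDR = 2.7e-11).

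SESN1 had 212, 210 and 205 CPM with Senexin B alone and 113, 117 and 111 CPM with both treatments at 24 h. After 72 h it had 192, 186, 190 and 188 CPM with SNX631 alone and 103, 105, 98.5 and 105 CPM with both. The inhibitor alone lay above vehicle in every library, while the groups with R1881 and with both treatments lay next to each other or overlapped. The interaction was -0.33 ± 0.05 (FDR = 9.8e-05) at 24 h and -0.19 ± 0.05 (FDR = 0.0043) at 72 h.

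At 72 h 2 further members passed the FDR limit for the interaction, both with an androgen effect that was lower under the inhibitor. The rise of TNFRSF10B went from 0.79 ± 0.03 to 0.57 ± 0.03, an interaction of -0.21 ± 0.04 (FDR = 0.00029), and its 24 h interaction was 0.01 ± 0.05 (FDR = 0.97). BTG2 rose by 0.13 ± 0.04 without SNX631 and had -0.08 ± 0.03 (FDR = 0.032) with it, an interaction of -0.21 ± 0.05 (FDR = 0.0028), and its 24 h interaction was -0.11 ± 0.07 (FDR = 0.44). PLK2 had an interaction of 0.35 ± 0.08 at 24 h that missed the FDR limit (FDR = 0.012) and 0.04 ± 0.08 at 72 h. For the other members the interaction did not pass the limit in either experiment, and at 72 h FAS had the largest value among them (0.60 ± 0.25). Across the 31 members, r between the 24 h and the 72 h interaction was 0.52, and it was not computed over all genes.

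**Figure D4:**
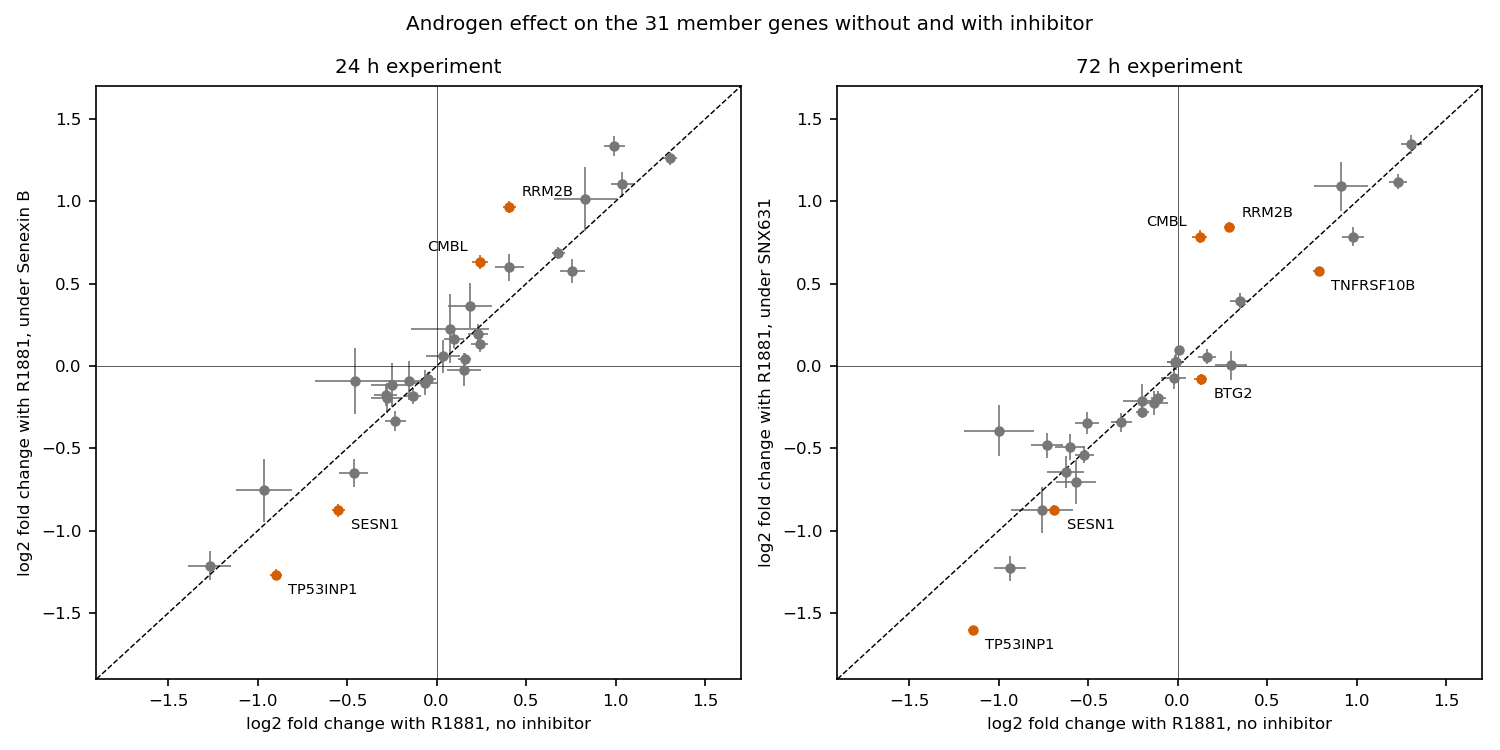
Androgen effect on each of the 31 members (points, log2 fold change with SE bars) without inhibitor (horizontal axis) and under inhibitor (vertical axis), at 24 h with Senexin B (left) and at 72 h with SNX631 (right), with a dashed line of equal effects. Orange points passed the FDR limit for the interaction, and RRM2B and CMBL lie above the line and TP53INP1 and SESN1 below it in both panels.

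The third question was how the inhibitors moved the members on their own and in the presence of R1881. Senexin B without R1881 called 1 member higher and 1 lower (2.02% and 1.77% of all genes), and with R1881 1 higher and 0 lower (1.61% and 1.50%). SNX631 without R1881 called 0 members higher and 1 lower (2.82% and 1.94%), and with R1881 1 higher and 1 lower (1.89% and 2.24%). At any fold, 6 members passed the FDR limit for Senexin B without R1881 and 6 with it (25.1% and 22.7% of all genes), and 13 for SNX631 without and 11 with it (26.9% and 33.1%). The called members were GDF15, TP53I3 and FAS.

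GDF15 rose with Senexin B whether androgen was present or not. It had 30.7, 34.7 and 31.9 CPM with Senexin B alone against 14.5 to 16.1 CPM in vehicle, and 11.8, 15.2 and 14.99 CPM with both treatments against 5.53 to 7.06 CPM with R1881. No library of the compared groups overlapped, and the rises were 1.09 ± 0.08 (FDR = 6.1e-13) and 1.15 ± 0.13 (FDR = 1.0e-08), or 2.13-fold and 2.21-fold. At 72 h it had 31.3, 32.4, 35.7 and 41.5 CPM with SNX631 alone, a rise of 0.51 ± 0.07 (FDR = 1.8e-07) that was under the fold limit, and 16.9, 16.002, 14.1 and 13.3 CPM with both treatments, where the change of 0.22 ± 0.09 missed the FDR limit (FDR = 0.062). The interaction passed the FDR limit in neither experiment (0.06 ± 0.15, FDR = 0.91, and -0.29 ± 0.12, FDR = 0.10).

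TP53I3 moved the other way and was low in every group, with 22 to 255 counts in a library. It had 3.84, 5.06 and 3.89 CPM with Senexin B alone against 6.01 to 7.25 CPM in vehicle, a fall by 0.70 ± 0.14 (FDR = 0.00015). With R1881 and Senexin B it had 2.54, 2.10 and 2.81 CPM, and the change from R1881 alone, -0.49 ± 0.20, missed the FDR limit (FDR = 0.062). In the 72 h experiment it had 5.07, 4.54, 5.28 and 5.79 CPM with SNX631 alone and 2.79, 3.64, 3.09 and 3.08 CPM with both. It fell by 0.74 ± 0.11 (FDR = 1.1e-06) without and by 0.88 ± 0.14 (FDR = 1.2e-06) with R1881, with no overlap in either. The lowest level of TP53I3 in each experiment was therefore in the group with both treatments.

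FAS had 2.64, 3.36, 3.09 and 2.64 CPM with R1881 and SNX631, above the R1881 libraries at 1.40 to 1.99 CPM, a rise of 0.85 ± 0.20 (FDR = 0.00037). Without R1881 the SNX631 libraries had 4.63, 3.31, 4.08 and 3.49 CPM and overlapped vehicle (0.24 ± 0.15, FDR = 0.22). The interaction of 0.60 ± 0.25 did not pass the FDR limit (FDR = 0.11), so the effect of SNX631 on FAS was not shown to differ with androgen. At 24 h Senexin B had 0.25 ± 0.20 and 0.40 ± 0.22, neither past the limit.

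Smaller changes passed the FDR limit among the other members. BTG2 rose in all 4 inhibitor comparisons, by 0.41 ± 0.05 and 0.30 ± 0.05 with Senexin B without and with R1881 (FDR = 2.1e-08 and 9.6e-06) and by 0.34 ± 0.03 and 0.13 ± 0.03 with SNX631 (FDR = 5.1e-10 and 0.0032). PLK3 rose by 0.57 ± 0.14 with SNX631 alone (FDR = 0.00086), from 3.28 to 3.86 CPM in vehicle to 4.37 to 5.84 CPM, just under the fold limit. It was called without 72 h vehicle replicate 3 (0.61) and without SNX631 replicate 1 (0.64). BTG1 rose by 0.27 ± 0.05 and 0.16 ± 0.04 with SNX631 without and with R1881 (FDR = 8.0e-05 and 0.0013), and PLK2 by 0.34 ± 0.05 and GADD45A by 0.32 ± 0.08 with Senexin B in the presence of R1881 (FDR = 8.5e-06 and 0.0026). Among the death genes, SNX631 raised AEN by 0.21 ± 0.05 and 0.26 ± 0.05 and TRIAP1 by 0.28 ± 0.05 and 0.17 ± 0.05 without and with R1881, and TNFRSF10B by 0.23 ± 0.03 without it, all under the fold limit (FDR = 0.0018, 3.2e-05, 1.3e-05, 0.0033 and 1.3e-07). SPATA18 rose by 0.41 ± 0.09 and FBXO22 by 0.18 ± 0.05 with SNX631 in the presence of R1881 (FDR = 0.00029 and 0.0020), and XPC rose by 0.13 ± 0.04 with SNX631 alone (FDR = 0.0099). Without R1881, SESN1 rose by 0.23 ± 0.03 and 0.18 ± 0.03 with Senexin B and SNX631 (FDR = 3.0e-06 and 6.8e-06). PPM1D fell by 0.27 ± 0.08 with Senexin B alone (FDR = 0.0054) and CCNG1 by 0.13 ± 0.03 with SNX631 alone (FDR = 0.00020). MDM2 rose by 0.15 ± 0.03 with SNX631 alone (FDR = 0.00047) and had 0.06 to 0.09 in the other comparisons, all with FDR over 0.01.

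**Figure D5:**
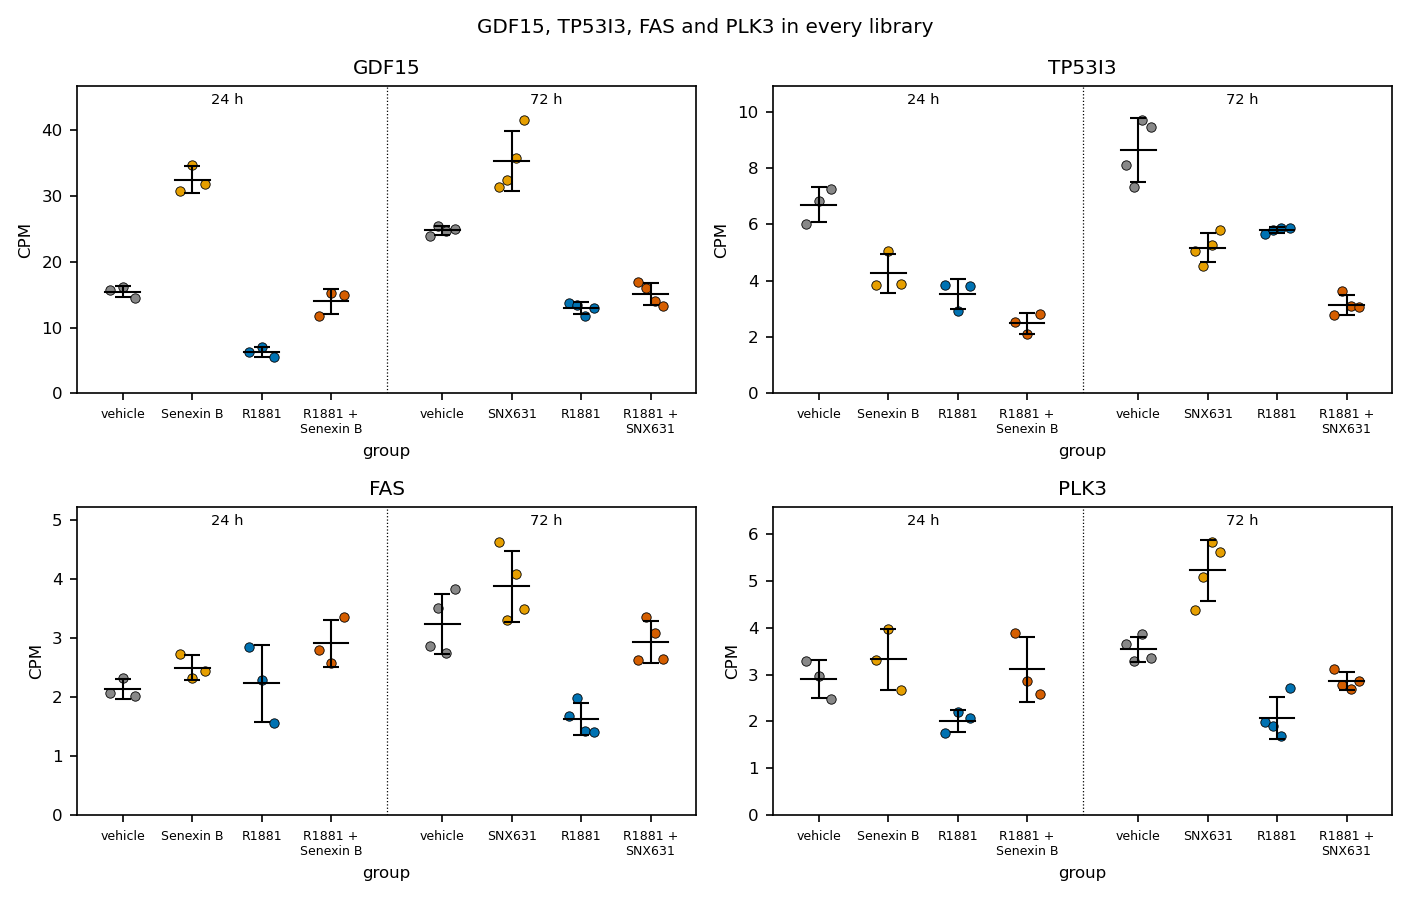
CPM of GDF15, TP53I3, FAS and PLK3 in every library (points), with group mean and SD (bars), for the 4 groups of each experiment (horizontal axis). GDF15 is highest with inhibitor alone (30.7 to 34.7 CPM at 24 h), TP53I3 lowest with R1881 and inhibitor (2.10 to 2.81 CPM at 24 h), and FAS lowest with R1881 at 72 h (1.40 to 1.99 CPM).

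The promoters of the members were next read for a p53 half-site. Many genes are known as p53 targets because of such sites, so a count over these members is a description and no independent result. Of the 31 genes, 24 had at least 1 promoter window of 300 bases (250 before the start of transcription and 50 after it) in the RefSeq table of GRCh38.p14, 35 windows in all. RRM2B, CMBL, TP53INP1, TNFRSF10B, GADD45A, PHLDA3 and FBXO22 were not in that table. A half-site of the p53 consensus, searched as its 10 letters on both strands with matches allowed to overlap, occurred in 6 of the 35 windows (17.1%), 1 in each of 6 genes, and in 6.63% of all 35116 windows. A match describes the letters only and is no evidence of binding. The 6 stretches are shown 5′ to 3′ on the strand of the gene, with the half-site in capitals, and they are all the windows with a match. A match to transcripts in the reference placed each window in sense.
PLK2, chr5:58460199-58460228, minus strand: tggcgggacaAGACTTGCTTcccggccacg
AEN, chr15:88621296-88621325, plus strand: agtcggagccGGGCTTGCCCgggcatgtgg
SESN1, chr6:109009018-109009047, minus strand: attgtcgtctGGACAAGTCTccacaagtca
FDXR, chr17:74872995-74873015, minus strand: gggcaggagcGGGCTTGCCCt
FAS, chr10:88991299-88991328, plus strand: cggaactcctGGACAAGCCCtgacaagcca
DDB2, chr11:47214975-47215003, plus strand: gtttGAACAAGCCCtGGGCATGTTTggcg

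The DDB2 window held 2 half-sites, the first 6 bases and the second 17 bases after the start of transcription, as 0.308% of all windows did. The other matches began 132 bases before the start in PLK2, 122 in FAS, 49 in SESN1, 34 in AEN and 11 in FDXR. With R1881, PLK2 was called higher in both experiments and AEN at 24 h, FDXR, SESN1 and FAS were called lower at 72 h, and DDB2 did not pass the FDR limit, so genes with the same letters stood on both sides. The 6 letters AGAACA, read on both strands (TGTTCT on the other) and found in half-sites of steroid receptors, occurred in 2 of the 35 windows, of FAS and XPC, and in 14.8% of all windows.

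Lists of related genes gave the setting. Of 40 other p53 targets, 35 were tested, and R1881 raised 2 and lowered 7 past both limits in the 24 h experiment, and raised 3 and lowered 5 in the other, beside 9.81% higher and 9.19% lower, and 9.70% and 10.1%, of all genes, with medians of -0.04 and -0.09. PMAIP1, which encodes the BH3-only protein NOXA, rose by 1.90 ± 0.11 and 1.05 ± 0.12 with R1881 (FDR = 3.66e-16 and 9.67e-10), and also with the inhibitors alone, by 1.09 ± 0.12 with Senexin B and 0.73 ± 0.13 with SNX631 (FDR = 1.57e-08 and 9.15e-06). KITLG, the gene of the KIT ligand, rose with R1881 by 1.30 ± 0.31 and 1.22 ± 0.25 (FDR = 0.000479 and 3.13e-05), and SUSD6 fell by 1.16 ± 0.05 and 1.49 ± 0.06 (FDR = 1.36e-19 and 1.86e-23). In all, 7 genes of the list were called the same way in both experiments with R1881, and these 3 had the largest mean change. PMAIP1 and KITLG were the 2 called higher at 24 h. The share of all genes called in both was not counted. With R1881 under Senexin B the list had 2 higher and 4 lower, beside 9.97% and 8.9% of all genes. Under SNX631 it had 4 higher and 3 lower, beside 10.1% and 12%. With the inhibitors, 2 were called higher and 0 lower without R1881 in each experiment, 0 with Senexin B and R1881 (edgeR, 22 at an unadjusted p under 0.05, 0 by DESeq2), and 1 higher and 1 lower with SNX631 and R1881. Of all genes, Senexin B called 2.02% higher and 1.77% lower without R1881, and 1.61% and 1.5% with it. For SNX631 the shares were 2.82% and 1.94% without R1881, and 1.89% and 2.24% with it. For the interaction edgeR and DESeq2 called 0 in both experiments, with 9 at an unadjusted p under 0.05 in each.

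Of the 22 genes that regulate p53, all tested, 3 were called higher with R1881 at 24 h and 2 at 72 h, near the shares over all genes (9.81% and 9.70%), and 0 were called lower (9.19% and 10.1%). CHEK1, the gene of a checkpoint kinase of replication stress, rose by 1.59 ± 0.09 and 0.98 ± 0.07 (FDR = 5.25e-17 and 3.99e-15), and HIPK2, the gene of a kinase that phosphorylates p53, rose by 0.92 ± 0.06 and 1.13 ± 0.04 (FDR = 1.06e-14 and 4.95e-25). With R1881 under inhibitor 3 were called higher in each experiment, beside 9.97% of all genes at 24 h and 10.1% at 72 h. Of the inhibitor comparisons, Senexin B alone called 1 higher, SNX631 alone 2, SNX631 with R1881 1 and Senexin B with R1881 0 (edgeR and DESeq2, 12 at an unadjusted p under 0.05). The shares of all genes called higher were 2.02%, 2.82%, 1.89% and 1.61% in that order. CHEK2, another checkpoint kinase gene, rose with both inhibitors alone by 0.68 ± 0.09 and 0.76 ± 0.07 (FDR = 3.0e-07 and 2.13e-11).

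The 20 genes of the ATF4 stress response, which also acts on GDF15 and SESN2, were all tested. R1881 raised 3 and lowered 1 past both limits in the 24 h experiment, and raised 2 and lowered 1 in the other, beside the same shares of all genes. VLDLR rose by 0.97 ± 0.07 and 1.34 ± 0.06 and DDIT3, the gene of the stress factor CHOP, fell by 0.92 ± 0.12 and 0.80 ± 0.11 (FDR = 2.18e-14, 8.44e-22, 4.2e-08 and 5.06e-08). With R1881 under Senexin B 1 was called higher and 2 lower, beside 9.97% and 8.9% of all genes. Under SNX631 5 were called higher and 2 lower, beside 10.1% and 12%. In these 2 comparisons PPP1R15A, the gene of a regulatory subunit of the phosphatase that ends the response, fell by 0.85 ± 0.18 and 0.65 ± 0.15 (FDR = 0.000138 and 0.000149). Senexin B called 4 of the 20 higher without R1881 and 1 with it, and SNX631 3 with it and 0 without it (edgeR and DESeq2, 11 at an unadjusted p under 0.05). The shares of all genes called higher were 2.02%, 1.61%, 1.89% and 2.82% in that order. STC2, a secreted glycoprotein gene, rose with both inhibitors in the presence of R1881, by 0.76 ± 0.06 and 0.81 ± 0.05 (FDR = 3.53e-12 and 1.02e-16).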

How the data were processed

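RNA-seq of 28 LNCaP libraries was analysed from the gene counts that the authors deposited. Per the submitters' processing notes, FastQC, cutadapt 2.8, STAR 2.7.2b and featureCounts (Subread 2.0.3) were used, and GRCh38.p13 and GRCm39 are named as builds. The libraries were made with a directional kit. The annotation release and the use of strand in counting are not given in the sources used here. The deposited values are estimated counts, since 16.9% of values above 0 were fractional (reads shared among genes), and they were rounded to whole counts. Reads of near-identical copies may have been split.

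Groups were taken from the labels. Each experiment was fitted on its own with edgeR 4.0.16 (R 4.3.3): TMM scaling, filterByExpr (minimum count 10, minimum total 15), 1 coefficient per group, and the quasi-likelihood test. Genes with FDR < 0.01 and fold change > 1.5 were called. Totals ran from 9846595 to 33809419 counts, so precision is lowest for members with few counts. The code recovered large known R1881 changes in simulated data. That simulation did not cover inhibitor effects, interactions, changes under the fold limit or changes in genes of low CPM. Alternatives were DESeq2 1.42.0 (test and size factors), library totals only, no filter, looser limits, all libraries in 1 fit, the replicate block, and each library left out. No pair of libraries of the same group agreed within sampling noise (chi-square over its degrees of freedom at least 1.20).

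Positions are from GENCODE release 29 (GRCh38), in which all 31 members were matched by gene ID. Every member is described in each comparison or counted, with library values for members called the same way in both experiments, for an interaction, or named with them. From each other list at most 3 genes called in both experiments are named. The members and lists were chosen with earlier results of these data known. The counts over the luminal marker list are not reported here.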

Additional observations from a re-analysis of the deposited data

Results flagged for a closer look

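By the interaction term, the androgen effect differed with and without inhibitor for 4 members at 24 h and 6 at 72 h (edgeR, FDR under 0.01). Over all genes, 2.09% and 7.09% passed the same limit. At 24 h the log2 differences were 0.56 for RRM2B, 0.39 for CMBL, -0.37 for TP53INP1 and -0.33 for SESN1. At 72 h they were 0.55 for RRM2B, 0.66 for CMBL, -0.46 for TP53INP1, -0.19 for SESN1, -0.21 for TNFRSF10B and -0.21 for BTG2.

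Among the 124 groups of 4 libraries (31 members, 4 groups at 72 h), 2 held a library far from the other 3, where chance alone flags about 1 group in 20. POLK in SNX631 replicate 3 stood at 41.2 CPM against 38.3 to 38.6 CPM, a gap of 0.916 of the range of the group. TRIAP1 in SNX631 replicate 1 stood at 47.0 CPM against 45.9 to 46.1 CPM, a gap of 0.831.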

How the results depend on the processing

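Of 310 pairs of a member and a comparison, 129 passed the FDR limit and 54 were called, and 50 of the 54 kept their call in every alternative run. Scaling by library totals only moved the median of all genes at 72 h from -0.01 to -0.12 on the log2 scale for R1881 without and with SNX631, and the members called higher and lower there became 5 and 11, and 6 and 9. The same scaling turned 1 change past the FDR limit, CCNG1 with R1881 under SNX631, from 0.0964 to -0.0118. It also ended the calls of CMBL (0.56) and GADD45A (0.52) with R1881 under Senexin B, which lay near the fold limit. Besides the FDXR and GADD45A calls lost with single libraries (given above), 12 pairs not called in the main fit were called in some alternative at the same FDR limit. Of the 181 pairs not past the FDR limit, 58 changed sign in some alternative.

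With FDR under 0.05 and no fold limit, 21, 21, 11, 12 and 5 members passed at 24 h (R1881, R1881 under Senexin B, Senexin B without and with R1881, interaction) and 25, 25, 15, 13 and 6 at 72 h in the same order. Leaving out 1 library at a time, the interaction at 24 h had 0 to 1 called member and SNX631 without R1881 1 to 2. No shared effect of the replicate number was seen (correlations of same-numbered deviations between -0.0145 and 0.0666 at 24 h and between -0.0677 and 0.0730 at 72 h). Whether same-numbered libraries were prepared together is not given by the labels. With the replicate block the counts of called members were 9, 13, 2, 1 and 0 at 24 h and 13, 12, 1, 2 and 1 at 72 h, as without it. Low counts limit FAS, PLK3, GADD45B and TP53I3, for which changes under the fold limit could be missed.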
